A study of Homo sapiens with 27 samples.

Results

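The genes that encode collagen chains were followed through the differentiation of the human embryonic stem cell line H1 toward photoreceptor progenitors. The members were the protein-coding genes whose symbol reads COL, a type number, A, and a chain number. All 44 such genes of the annotation were found among the 44852 genes of the deposited tables, and all 44 were tested in every comparison.

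Collagens are trimers of chains that wind into a triple helix. Fibrillar collagens form the striated fibers of connective tissue, cartilage, and the vitreous gel of the eye, and fibril-associated collagens coat those fibers. Type IV collagen is the network of basement membranes such as the inner limiting membrane of the retina and Bruch's membrane, and it lies beside laminin, the protein family used here to coat the culture plates. Other collagens form beaded filaments, anchor epithelia, or span the plasma membrane.

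Bulk RNA-seq was performed on 27 libraries, 3 for each of 3 laminin matrices at days 2, 22, and 32. The days follow the sample characteristics, whereas the titles of the libraries read 0, 20, and 30. Each matrix is called LN523, LN323, or LN521 after its main laminin, because the paper describes LN523 and LN323 as mixed with LN521 and LN521 as used alone, whereas the sample labels give LN323 as the matrix used alone or added to the others. At day 2 the cells are labelled undifferentiated, and at days 22 and 32 they are labelled photoreceptor progenitors after neural induction with CKI-7 and SB431542 and culture with BDNF, CNTF, retinoic acid, and DAPT. All groups share the H1 genotype and the differentiation media of their day. The replicate number equals the sequencing lane, and nothing states that replicates were separate cultures, so p-values measure only the spread between these samples.

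Total counts ranged from 25620624 to 47340990 per library (median 39862487). The labels were checked against marker genes. POU5F1, which marks pluripotent cells, lay at 2216 to 2597 TPM (TPM is a level scaled for gene length and library total) at day 2, at 1.24 to 108.4 TPM at day 22 (median 2.11), and at 1.39 to 22.1 TPM at day 32 (median 1.96). RAX, a transcription factor of retinal progenitors, had a median of 0.881 TPM at day 2, 205.3 TPM at day 22, and 205.4 TPM at day 32. The photoreceptor markers CRX and RCVRN were low at day 32, with medians of 6.61 and 0.321 TPM. The summed level of 9 photoreceptor precursor markers had medians of 105.8, 40.8, and 78.6 TPM at days 2, 22, and 32. At day 32 this sum ranged from 30.6 to 268.8 TPM. From day 22 to day 32, 6 of these 9 markers rose and none fell by the edgeR test used below. Of 8 ganglion cell and neuron markers, 5 rose and none fell over the same days. Replicate 2 stood apart on LN523 and LN323, with the summed level of 8 retinal progenitor markers at 2110.0 and 2119 TPM at day 32 against 6832 to 10640.0 TPM in the other libraries of those matrices. On LN523 it was lowest at day 22 too, at 3492 against 7717 and 7976 TPM, and on LN521 at day 32 it had 2920.0 against 3593 and 6437 TPM. Replicate 1 of LN521 differed from its group in other markers, with 6 of 8 pluripotency markers over 2 times higher at day 22 than in both other replicates, and with 8 markers of ganglion cells and neurons summing to 660.8 TPM against 174.1 and 54.9 TPM. Some results that rest on these libraries are also given without them.

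The summed level of the 44 genes rose several-fold between day 2 and day 22. It was 1043 to 1613 TPM at day 2 (median 1271), 4339 to 7444 TPM at day 22 (median 6176), and 4208 to 13052 TPM at day 32 (median 6241). The ranges at day 2 and day 22 did not overlap. In bulk RNA from a mixed culture, fewer cells of a type and less RNA per cell cannot be told apart. Of the 44 genes, 41 reached a mean of 1 TPM in at least 1 group, 17 reached 100 TPM, and 39 had a count in all 27 libraries. COL6A5, COL20A1, and COL28A1 stayed under 1 TPM in every group mean.

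The genes that supplied most of the collagen transcripts changed with the day. At day 2, COL6A1 with 14.4%, COL18A1 with 14.4%, COL6A2 with 10.5%, and COL26A1 with 9.85% led the summed level. At day 22, COL2A1 held 24.7%, COL3A1 12.4%, COL1A2 8.88%, and COL4A2 7.11%. At day 32, COL3A1 held 23.0%, COL1A2 13.0%, and COL2A1 12.8%. Without replicate 2 of LN523 and LN323 the order at day 32 turned, with COL2A1 at 17.4%, COL3A1 at 14.5%, and COL1A2 at 11.6%. Fibrillar chains together went from a median of 264.3 TPM at day 2 to 3451 TPM at day 22 and 3032 TPM at day 32. Type IV chains together had medians of 187.5, 843.1, and 758.9 TPM, and the fibril-associated chains had medians of 144.5, 665.1, and 668.1 TPM.

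**Figure D1:**
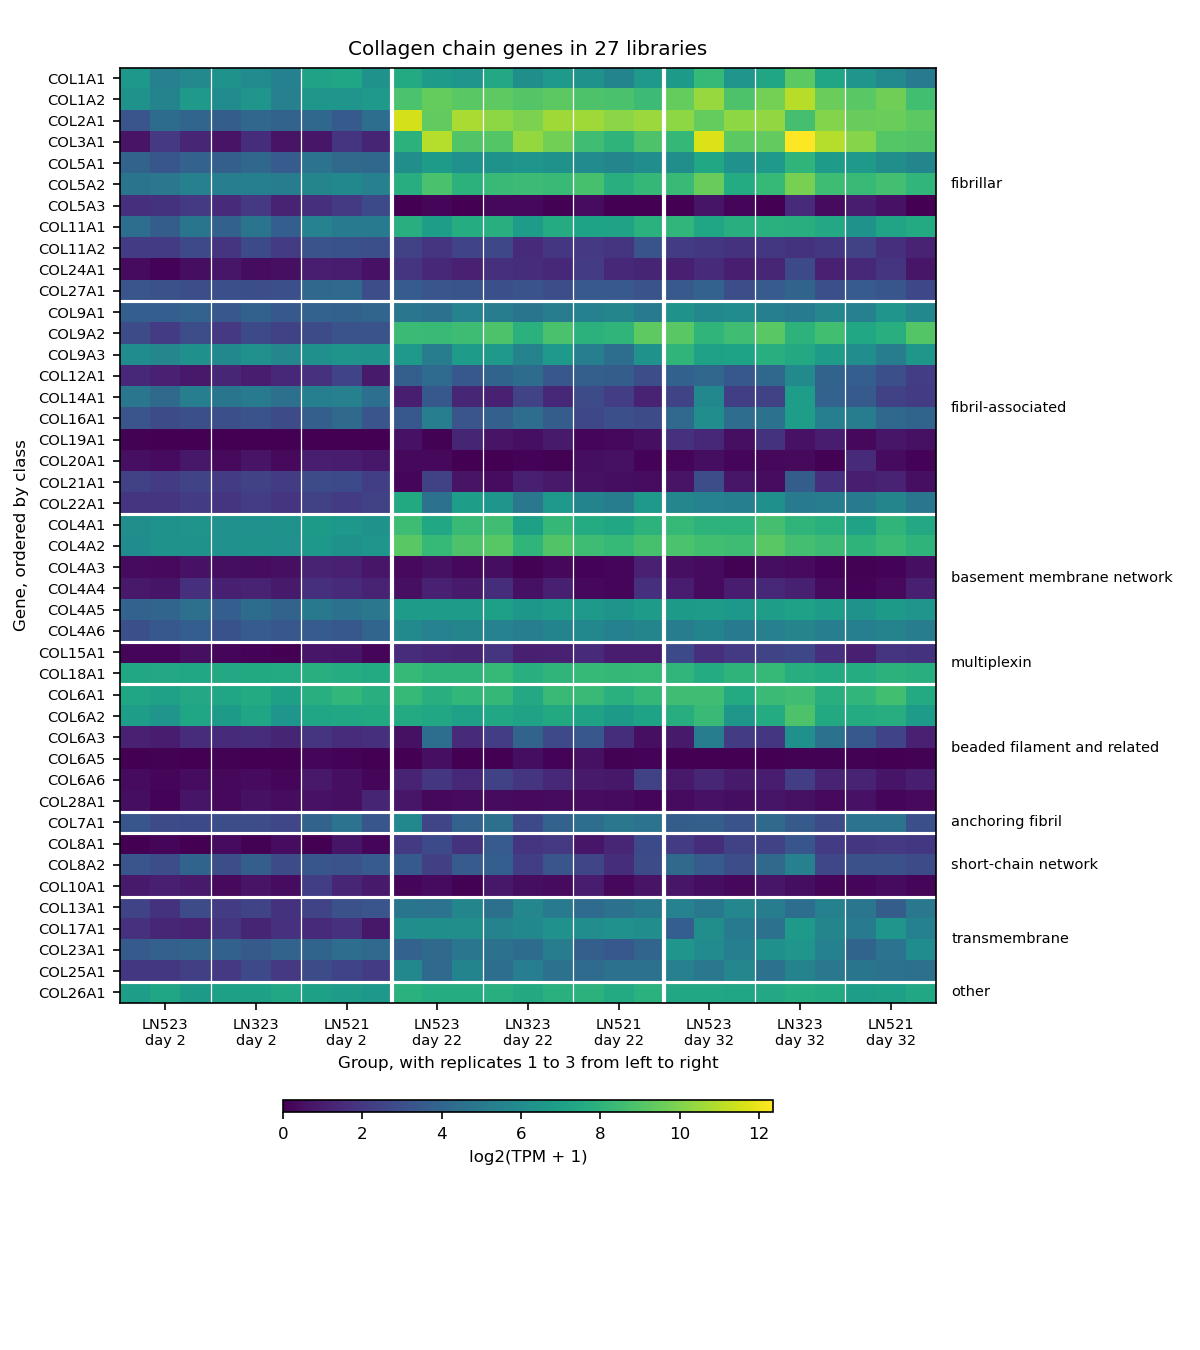
Level of each of the 44 collagen chain genes (rows, grouped by class) in each of the 27 libraries (columns, grouped by day and matrix), as log2(TPM + 1). COL2A1 and COL3A1 pass from the low to the high end of the scale between day 2 and day 22, and replicate 2 on LN323 at day 32 has the highest COL3A1 level, 5224 TPM.

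From day 2 to day 22, averaged over the 3 matrices, 27 of the 44 genes rose and 7 fell at an adjusted p-value under 0.05 in edgeR's quasi-likelihood test. Of all 44852 genes tested, 18.2% rose and 16.9% fell. The tested set takes any gene with more than 1 count in sum, and 13476 genes had at least 20 counts in every library. These shares are therefore not matched to the level of the collagen genes. The median log2 fold change was 1.33 over the 44 genes and -0.00467 over all genes. Each of the 34 called genes changed in the same direction on all 3 matrices. The call held in every alternative run that tested the gene for 26 of the 34, and the others were COL6A1, COL6A3, COL7A1, COL8A2, COL10A1, COL11A2, COL18A1, and COL26A1. Among the 26, COL20A1 was tested in 10 alternatives and not in limma, where the others had 12.

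Among the fibrillar chains, 7 of 11 rose and 2 fell. COL3A1 (GRCh38 chr2:188974373-189012746, plus strand), the chain of type III collagen of soft connective tissue, lay between 0.556 and 3.09 TPM at day 2 (median 1.41) and between 247.0 and 2029.6 TPM at day 22 (median 516.0). All 9 libraries at day 22 were above all 9 at day 2, a log2 fold change of 8.81 (SE 0.32, adjusted p = 3.21e-29 in edgeR), or 449-fold. COL2A1 (chr12:47972967-48004554, minus strand), the chain of type II collagen of cartilage and vitreous, lay between 8.43 and 20.8 TPM at day 2 (median 15.6) and between 670.2 and 2962 TPM at day 22 (median 1428). The groups again did not overlap, with a log2 fold change of 6.33 (SE 0.21, adjusted p = 1.00e-30 in edgeR). COL11A1 and COL5A2, which join type II and type I fibrils, rose from medians of 26.1 and 39.9 TPM to 190.2 and 318.5 TPM, and COL5A1 rose from 14.2 to 74.8 TPM (log2 fold change 2.10).

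Of 7 cartilage markers, 1 rose and 3 fell from day 2 to day 22. SOX9, a transcription factor of cartilage that other tissues also use, was the one that rose, from a median of 8.60 TPM (at most 13.4) to 42.8 TPM (at least 21.5). ACAN, the cartilage proteoglycan, had a median of 2.30 TPM at day 2, 0.902 TPM at day 22, and 0.236 TPM at day 32. MATN1, a cartilage matrix protein, never exceeded 1.41 TPM in a library. The summed level of the list was 556.1 to 1013 TPM at day 2 and 33.6 to 73.9 TPM at day 22, most of it at day 2 being CNMD (539.9 to 992.7 TPM). The part of such cells in the rise of COL2A1 was not tested.

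From day 2 to day 22, when COL3A1 rose, 8 of 10 markers of fibroblasts and mesenchyme also rose and 1 fell. Their summed level was 58.4 to 198.1 TPM at day 2, 139.2 to 503.6 TPM at day 22, and 273.5 to 1642 TPM at day 32. DCN and LUM, proteoglycans that bind collagen fibrils, were at or near 0 at day 2 (at most 0.0931 and 0.504 TPM) and had medians of 7.97 and 34.8 TPM at day 22. Over the same days 8 of 9 pigment epithelium markers rose, from a sum of 102.5 to 211.7 TPM to 780.9 to 2392 TPM, and 8 of 8 retinal progenitor markers rose. Their part in the result was not tested.

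Both chains of type I collagen, the main collagen of bone and skin, behaved unequally. COL1A2 (chr7:94394895-94431227, plus strand) rose from a median of 86.3 TPM at day 2 (range 40.5 to 103.4) to 531.1 TPM at day 22 (range 349.7 to 686.7), a log2 fold change of 2.54 (SE 0.16, adjusted p = 1.71e-19 in edgeR). COL1A1 (chr17:50184101-50201632, minus strand) had a median of 77.2 TPM at day 2 (range 41.3 to 152.9) and 102.3 TPM at day 22 (range 47.2 to 188.5), and its log2 fold change of 0.24 (SE 0.20, adjusted p = 0.453 in edgeR) did not pass the threshold. The ratio of COL1A2 to COL1A1 in TPM was 0.568 to 1.84 at day 2 (median 0.961) and 2.47 to 9.41 at day 22 (median 6.05), with no overlap. It remained between 3.49 and 14.1 at day 32. The type I trimer in tissue holds more of the chain from COL1A1 than of the chain from COL1A2.

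The fibrillar chains that fell were COL5A3 and COL11A2. COL5A3, a minor chain of type V collagen, had 100 to 413 counts per library at day 2 and 0 to 22 counts at day 22, with 3 of 9 libraries at 0 at the later day. Its log2 fold change was -5.25 (SE 0.63), a value that depends on how the fit treats the counts of 0. COL11A2 fell from a median of 5.60 to 3.19 TPM (log2 fold change -0.60, SE 0.24, adjusted p = 0.043 in edgeR), a call that was lost without replicate 2 (log2 fold change -0.20). COL24A1 rose to a median of 1.68 TPM. COL27A1 had medians of 7.20 and 8.24 TPM and was not called.

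Of the 10 fibril-associated chains, 5 rose and 3 fell. The 3 chains of type IX collagen, which decorates type II fibrils, changed by different amounts. COL9A2 rose from a median of 6.03 TPM (range 3.20 to 7.92) to 346.5 TPM (range 234.1 to 629.2), a log2 fold change of 5.78 (SE 0.20, adjusted p = 7.56e-30 in edgeR). COL9A1 rose from 13.1 to 35.7 TPM (log2 fold change 1.29, SE 0.15), whereas COL9A3 had medians of 72.8 and 79.1 TPM and a log2 fold change of -0.32 (SE 0.18, adjusted p = 0.169 in edgeR). The ratio of COL9A2 to COL9A1 went from a median of 0.471 to 12.2 and the ratio of COL9A3 to COL9A1 from 5.36 to 2.48. Exons of COL9A3 overlap TCFL5 on the other strand over 3.20% of their length, and whether counting used strand is not given in the sources used here. The other members with such overlap over more than 1% are COL4A3 (6.82%), COL5A3 (3.98%), COL15A1 (2.06%), COL16A1 (1.26%), and COL18A1 (18.5%).

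COL14A1, a chain that sits on type I fibrils, was the fibril-associated gene with the highest level among those that fell. It lay between 18.3 and 40.8 TPM at day 2 (median 27.8) and between 1.06 and 9.66 TPM at day 22 (median 1.62), without overlap, and its log2 fold change was -3.74 (SE 0.36, adjusted p = 1.11e-12 in edgeR). COL21A1 fell from a median of 4.32 to 0.488 TPM (log2 fold change -3.04, SE 0.39), and the day 22 library of LN523 replicate 2, at 4.38 TPM, lay within the day 2 range. COL20A1 fell from a median of 0.580 to 0.103 TPM. COL22A1, found at tissue junctions such as those of muscle and tendon, rose from a median of 3.42 to 88.4 TPM (log2 fold change 4.22, SE 0.23). COL12A1 rose from 1.54 to 12.4 TPM. COL19A1 had counts of 0 in 7 of 9 libraries at day 2, with 2 and 4 counts in the others, and 4 to 105 counts per library at day 22, so that no fold is given.

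**Figure D2:**
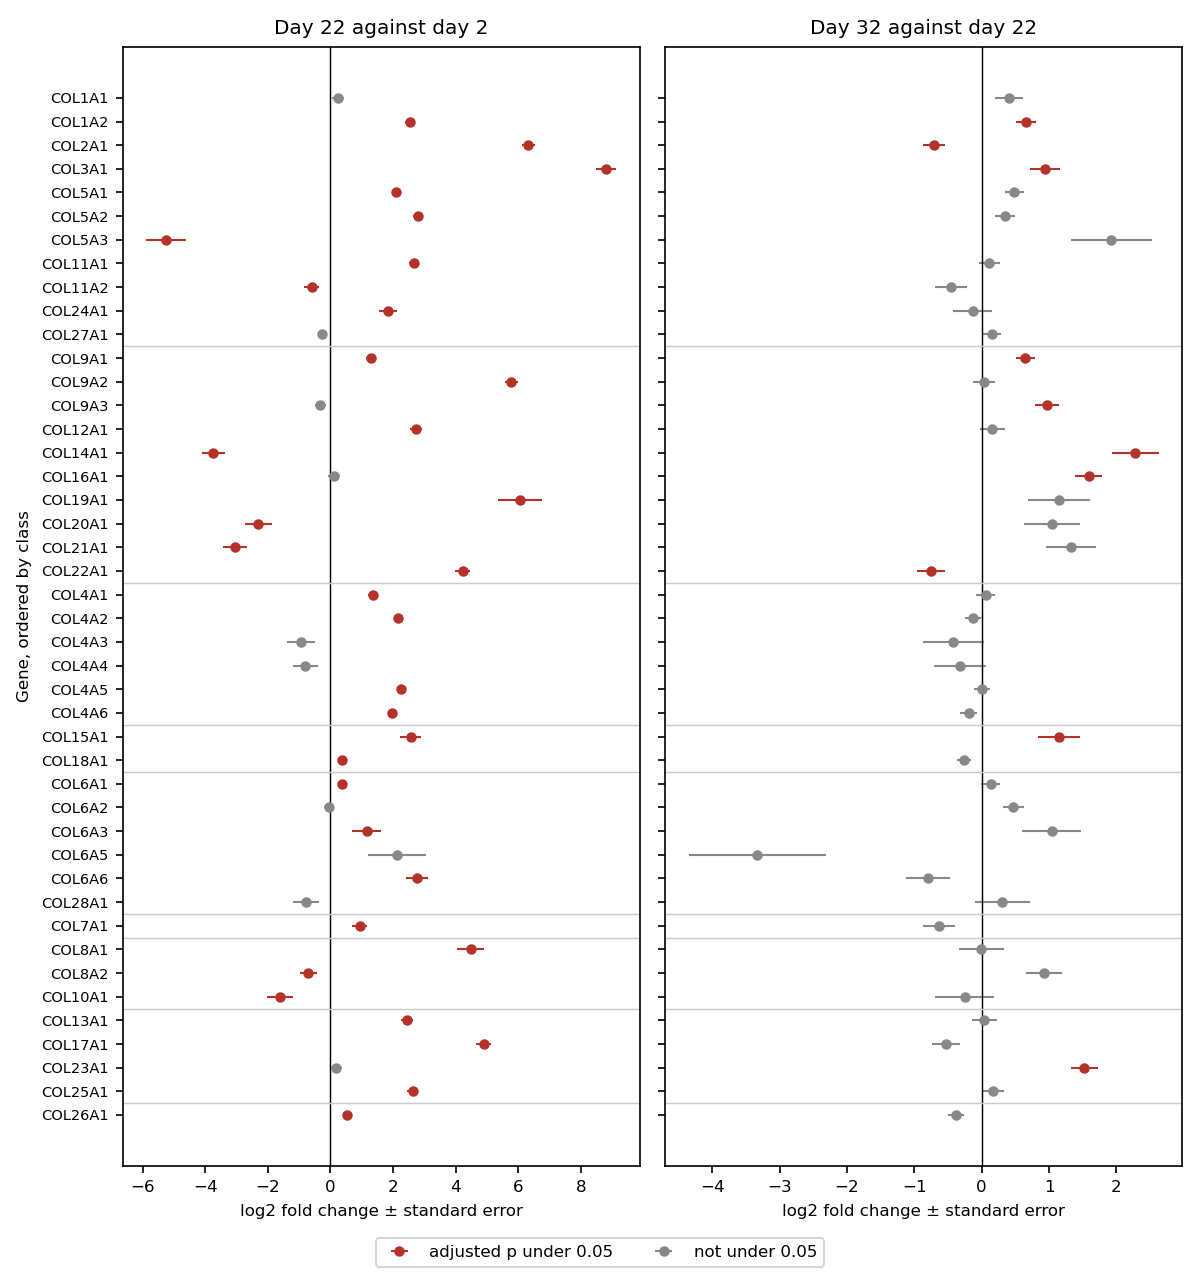
Log2 fold change with its standard error for each of the 44 genes, averaged over the 3 matrices, from day 2 to day 22 (left) and from day 22 to day 32 (right). Red points have an adjusted p-value under 0.05 in edgeR. The left panel holds 27 rises and 7 falls and the right panel 8 rises and 2 falls, and COL14A1 lies left of 0 in the first and right of 0 in the second.

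Type IV collagen is encoded by 3 pairs of genes that lie head to head and are read in opposite directions. COL4A1 and COL4A2 build the common network of basement membranes, COL4A3 and COL4A4 contribute to the networks of kidney, lung, and eye, and COL4A5 and COL4A6 to those of smooth muscle, skin, and other epithelia. The stretch between the starts of each pair is shown because the partners were measured together in every library. Sequences come from RefSeq promoters (GRCh38.p14, plus strand), which matched 32 of the 44 genes. Capitals mark GGGCGG and CCAAT, searched on both strands.
COL4A1 and COL4A2, chr13:110307158-110307283: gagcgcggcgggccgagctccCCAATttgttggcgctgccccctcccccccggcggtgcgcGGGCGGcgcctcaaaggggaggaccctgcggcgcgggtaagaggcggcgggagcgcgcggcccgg
COL4A4 and COL4A3, chr2:227164454-227164623: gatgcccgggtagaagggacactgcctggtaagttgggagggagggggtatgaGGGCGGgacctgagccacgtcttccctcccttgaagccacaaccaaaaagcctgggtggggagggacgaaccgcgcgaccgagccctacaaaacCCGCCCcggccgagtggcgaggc
COL4A6 and COL4A5, chrX:108439588-108439837: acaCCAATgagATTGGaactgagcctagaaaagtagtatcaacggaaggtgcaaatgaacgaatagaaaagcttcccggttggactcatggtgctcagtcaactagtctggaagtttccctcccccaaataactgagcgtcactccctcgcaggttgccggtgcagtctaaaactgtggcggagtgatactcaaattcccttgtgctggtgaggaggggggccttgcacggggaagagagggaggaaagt

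The stretches hold 126 bases for COL4A1 and COL4A2, 170 for COL4A4 and COL4A3, and the last 250 of 340 bases for COL4A6 and COL4A5. The first has 1 match to GGGCGG and 1 to CCAAT, letters that 34.6% and 21.1% of all 35116 promoters hold in a window of that length before the start. The second has 2 matches to GGGCGG (38.3% of promoters hold at least 1) and none to CCAAT (25.4%). The last has 2 matches to CCAAT (32.0%) and none to GGGCGG (42.6%). A match is a description of these letters only.

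COL4A1 rose from a median of 80.6 TPM at day 2 (range 66.7 to 106.4) to 252.2 TPM at day 22 (range 128.0 to 376.6), a log2 fold change of 1.36 (SE 0.15, adjusted p = 3.52e-11 in edgeR). Its partner COL4A2 rose from 77.7 TPM (range 63.9 to 96.6) to 431.2 TPM (range 268.1 to 585.8), a log2 fold change of 2.17 (SE 0.12, adjusted p = 3.91e-21 in edgeR). The ratio of COL4A2 to COL4A1 went from 0.833 to 1.11 at day 2 to 1.45 to 2.10 at day 22, so that the pair was close to equal in TPM at first and unequal later. COL4A5 and COL4A6 rose by 2.24 (SE 0.12) and 1.98 (SE 0.13) on the log2 scale, from medians of 19.6 and 9.46 TPM to 108.1 and 47.1 TPM, and neither overlapped between the days. COL4A3 and COL4A4 stayed low, with medians of 0.419 and 1.27 TPM at day 2 and 0.219 and 0.879 TPM at day 22, and were not called (adjusted p = 0.096 and 0.11 in edgeR). None of the 6 type IV genes was called from day 22 to day 32.

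**Figure D3:**
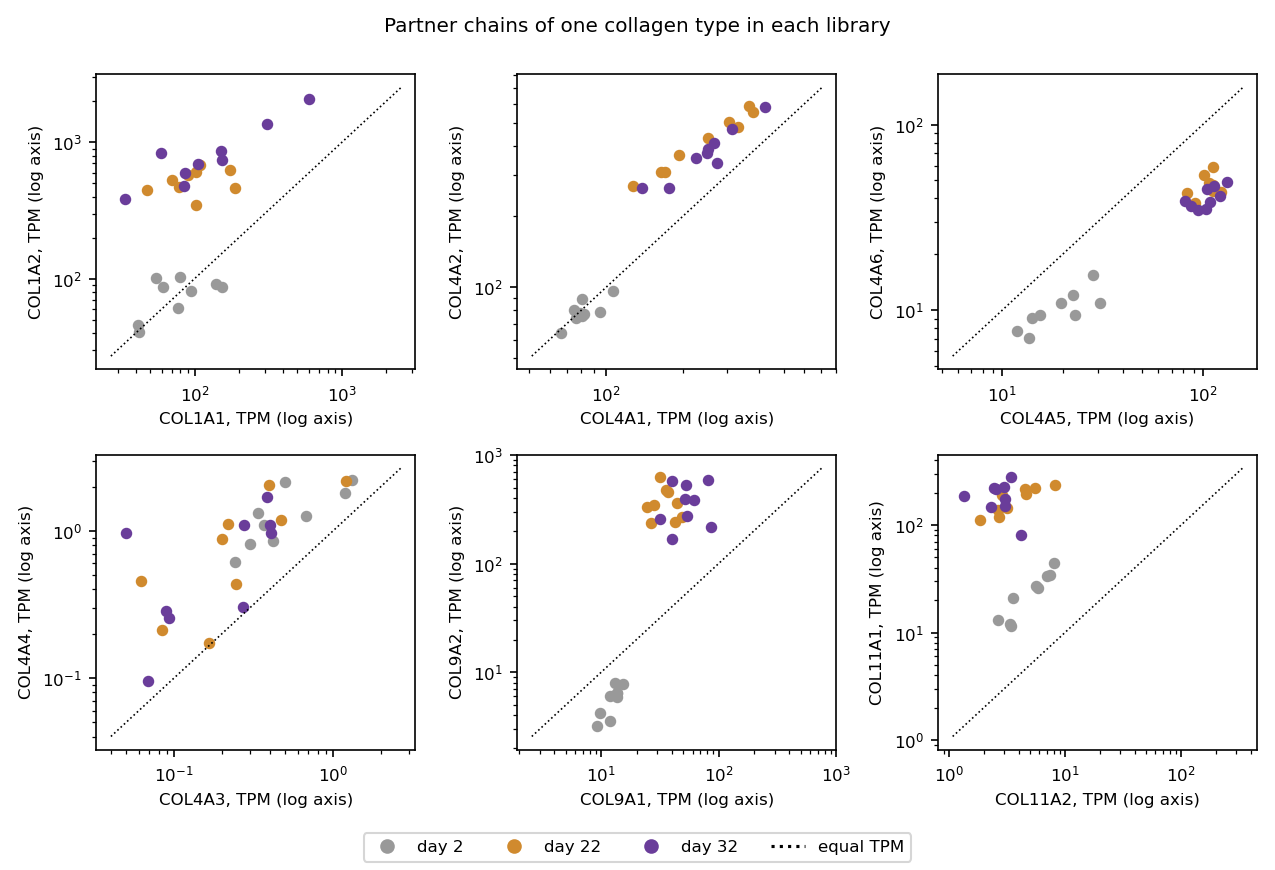
Levels in TPM of partner chains in each of the 27 libraries, on log axes, colored by day, with a dotted line at equal TPM. COL1A2 and COL1A1 lie near the line at day 2 and above it at days 22 and 32, with median ratios of 0.961, 6.05, and 5.74, and COL4A2 and COL4A1 likewise with 0.957, 1.71, and 1.5.

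The multiplexins COL15A1 and COL18A1, collagens of basement membranes with heparan or chondroitin sulfate side chains, both rose. COL18A1 was among the leading genes on every day and rose from a median of 178.9 to 296.0 TPM (log2 fold change 0.38, SE 0.10), and 18.5% of its exon length overlaps SLC19A1 on the other strand. COL15A1 went from 0.180 to 1.44 TPM. Type VI collagen forms beaded filaments, and of its 5 genes and the related COL28A1, 3 rose and none fell. COL6A6 rose from a median of 0.281 to 1.62 TPM, and COL6A5 and COL28A1 were not called. COL6A1 had medians of 176.9 and 302.4 TPM and COL6A2 of 153.6 and 143.6 TPM (log2 fold change -0.04, SE 0.16). COL6A3, the chain that completes the common type VI trimer, was far lower than either, with medians of 1.93 and 3.80 TPM. The ratio of COL6A3 to COL6A1 had a median of 0.0109 at day 2 and 0.0125 at day 22. The rises of COL6A1 (0.38, SE 0.14, adjusted p = 0.0253 in edgeR) and COL6A3 (1.16, SE 0.45, adjusted p = 0.0407) passed the threshold narrowly. With the filterByExpr filter they lost the call, at adjusted p = 0.055 and 0.146. COL6A3 at day 22 was highest in replicate 2 on LN523 (0.456, 20.7, and 1.81 TPM) and on LN323 (3.80, 14.0, and 5.61 TPM). Without replicate 2 its log2 fold change was 0.46, and 6 of 12 alternatives kept its call.

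Of the 4 transmembrane collagens, 3 rose and none fell. COL17A1, a chain of the hemidesmosomes that fix epithelia to the basement membrane, rose from a median of 1.75 TPM (range 0.739 to 2.67) to 66.4 TPM (range 45.4 to 74.6), a log2 fold change of 4.90 (SE 0.24, adjusted p = 5.04e-24 in edgeR). COL13A1 rose from 4.83 to 26.6 TPM and COL25A1, a neuronal collagen, from 3.64 to 23.4 TPM. COL7A1, which forms the anchoring fibrils under such epithelia, rose from 6.70 to 21.2 TPM (log2 fold change 0.93, SE 0.23). Of 10 surface ectoderm and keratinocyte markers, 8 rose and none fell, with a summed level of 471.0 to 784.6 TPM at day 2 and 923.3 to 1557 TPM at day 22. Their part in the result was not tested. COL26A1 rose from 127.3 to 210.8 TPM.

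The short-chain collagens changed in both directions. COL8A1, a chain of sheet-like networks in the cornea and vessels, rose from a median of 0.148 to 3.19 TPM (log2 fold change 4.48, SE 0.44). COL8A1 was at 0 in 1 of 9 libraries at day 2. All 12 alternatives kept its call, with log2 fold changes of 1.89 to 5.57. Its partner COL8A2 had medians of 8.44 and 6.32 TPM, and its fall of 0.71 on the log2 scale lost the call without replicate 2 (log2 fold change -0.34, adjusted p = 0.299 in edgeR). COL10A1, the collagen of hypertrophic cartilage, fell from 0.846 to 0.286 TPM (log2 fold change -1.61, SE 0.43). Its ranges overlapped, at 0.240 to 3.94 TPM at day 2 and 0.0600 to 0.906 TPM at day 22. By matrix the change was -2.98 (SE 0.78) on LN523 and -1.68 (SE 0.72) on LN521, but only -0.18 (SE 0.73) on LN323.

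From day 22 to day 32, 8 of the 44 genes rose and 2 fell, where 1.03% of all genes rose and 0.305% fell. Their median log2 fold change was 0.14, against 0.01 over all genes. All 10 had the same sign on all 3 matrices. The calls of COL16A1, COL23A1, and COL9A3 held in every alternative run. The other 7 lost the call in at least 2 of 12 alternatives, and the count ranged from 3 to 18.

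COL16A1 (chr1:31652263-31704319, minus strand), a fibril-associated chain, was not called from day 2 to day 22 (log2 fold change 0.12, SE 0.19) and then rose from a median of 9.66 TPM (range 5.43 to 37.3) to 24.2 TPM (range 14.9 to 117.1). Its log2 fold change from day 22 to day 32 was 1.59 (SE 0.20, adjusted p = 2.58e-07 in edgeR). The ranges overlapped only through replicate 2 on LN523 and LN323 at day 22. The transmembrane collagen COL23A1 (chr5:178237476-178590393, minus strand) rose from 18.5 TPM (range 9.43 to 36.2) to 62.2 TPM (range 14.6 to 87.0), a log2 fold change of 1.53 (SE 0.20, adjusted p = 6.79e-07 in edgeR). COL9A3 (chr20:62816244-62841159, plus strand) rose from 79.1 TPM (range 21.3 to 112.3) to 134.1 TPM (range 35.1 to 268.1), a log2 fold change of 0.97 (SE 0.17, adjusted p = 2.98e-04 in edgeR).

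COL14A1, which had fallen before, rose from a median of 1.62 to 4.79 TPM (log2 fold change 2.28, SE 0.34, adjusted p = 1.42e-05 in edgeR). Its highest levels at day 32, 53.6 and 121.7 TPM, were those of replicate 2 on LN523 and LN323, and the other 7 libraries lay between 3.58 and 13.5 TPM. COL3A1 rose again by 0.94 (SE 0.23), COL1A2 by 0.66 (SE 0.15), COL9A1 by 0.65 (SE 0.14), and COL15A1 by 1.15 (SE 0.31) on the log2 scale. Of 12 alternatives, 10 kept the call of COL14A1 (log2 fold change 1.59 to 2.84) and 6 that of COL3A1 (0.73 to 1.16). Without replicate 2, the rise of COL1A2 was 0.28 (adjusted p = 0.406 in edgeR) and that of COL15A1 was 0.98 (adjusted p = 0.092). COL2A1 fell by 0.71 (SE 0.17, adjusted p = 0.013 in edgeR), from a median of 1428 to 761.4 TPM. COL22A1 fell by 0.75 (SE 0.21, adjusted p = 0.0476 in edgeR), and without replicate 3 its fall was 0.29 (adjusted p = 1).

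Replicate 2 on LN523 and LN323 carried the highest levels of several of these genes. COL3A1 at day 32 was 297.5, 3303, and 603.7 TPM in replicates 1 to 3 on LN523. On LN323 it was 674.4, 5224, and 2029.1 TPM. On LN521 it was 1100.2, 549.3, and 506.3 TPM, with replicate 1 as the highest. Of 41 genes, 17 on LN323 and 10 on LN523 were over 2 times higher in replicate 2 at day 32 than in both other replicates, against 2 on LN521. The same count was not taken over all genes. COL2A1 was lowest in the same libraries, at 679.8 TPM on LN523 and 416.0 TPM on LN323, where the other replicates had 1075 to 1295 TPM.

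Markers of other cells moved in those libraries as well. At day 32 the summed level of 10 fibroblast and mesenchyme markers was 571.8, 822.1, and 423.8 TPM in replicates 1 to 3 on LN523 and 585.0, 1642, and 659.1 TPM on LN323. Of these 10 markers, 8 on LN523 and 7 on LN323 were highest in replicate 2. The 9 lens markers summed to 960.1 TPM in replicate 2 of LN323, against 156.5 and 345.3 TPM in the other replicates, but on LN523 they were lowest in replicate 2 (237.1, 128.2, and 319.8 TPM). All 10 surface ectoderm and keratinocyte markers were highest in replicate 2 on both matrices, with sums of 602.0, 1980.0, and 954.0 TPM on LN523 and 1040.0, 1947, and 1158 TPM on LN323. Their part in the result was not tested.

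**Figure D4:**
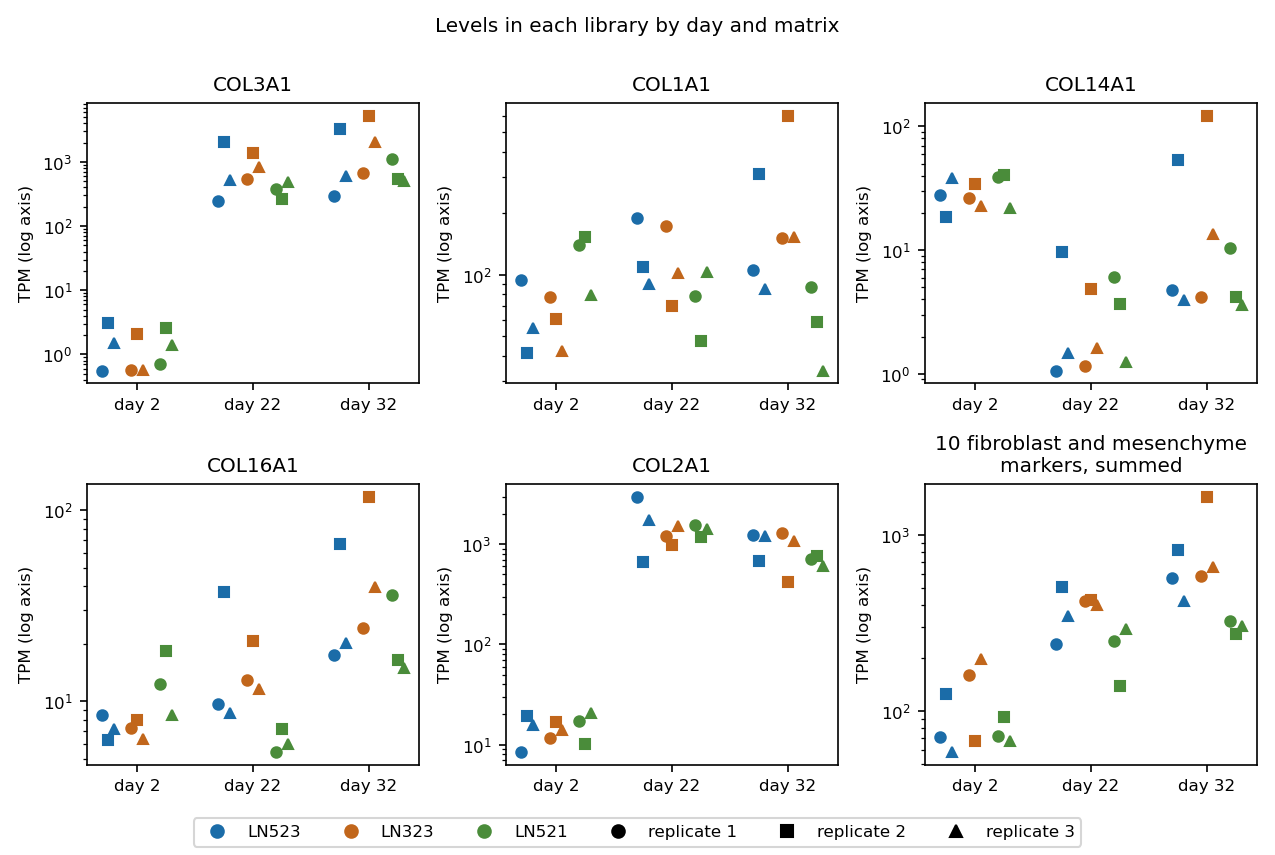
Levels in TPM (log axes) of 5 collagen genes and the summed level of 10 fibroblast and mesenchyme markers in each library, by day, with color for the matrix and shape for the replicate. The squares (replicate 2) of LN523 and LN323 at day 32 lie highest for COL3A1 (3303 and 5224 TPM), COL1A1, COL14A1, COL16A1, and the markers and lowest within their groups for COL2A1.

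Whether the change over days differed between the matrices was asked with an F test in edgeR over all 27 libraries. Only COL1A1 passed among the 44 genes (adjusted p = 0.0219), where 0.0602% of all genes did. From day 2 to day 22 its log2 fold change was 0.68 (SE 0.35) on LN523, 0.63 (SE 0.35) on LN323, and -0.59 (SE 0.35) on LN521. From day 22 to day 32 it was 0.42, 1.30, and -0.51 in the same order (SE 0.36, 0.36, and 0.35). No collagen gene passed without the lane block, with the filterByExpr filter, in DESeq2, in limma, or without replicate 3, and 10 and 13 passed without replicates 1 and 2. The share of all genes that passed in those runs is not given here, so these counts are not read as particular to collagens.

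The matrices were then compared within each day. LN523 and LN323 differed in 0 collagen genes on all 3 days in edgeR, where 0.233%, 0.013%, and 0% of all genes differed at days 2, 22, and 32. At an unadjusted p-value under 0.05 the edgeR counts were 3, 2, and 11 of 44, where 2.38%, 1.33%, and 1.9% of all genes had such a value. At the adjusted threshold, DESeq2 and limma also gave 0. A fit of only the 6 day 32 libraries compared gave 14 at the adjusted threshold, so the count at that day depends on whether LN521 enters the fit. The share of all genes called in that fit is not given here.

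At day 2, LN523 and LN521 differed in 2 collagen genes, where 0.624% of all genes differed, and LN323 and LN521 in 5, where 2.5% did. COL1A1 was 94.3, 41.3, and 55.0 TPM on LN523, 77.2, 60.6, and 42.1 TPM on LN323, and 139.0, 152.9, and 79.7 TPM on LN521. It was lower on LN523 (log2 fold change -0.79, SE 0.18, adjusted p = 0.00702 in edgeR) and on LN323 (-0.82, SE 0.18, adjusted p = 9.84e-04) than on LN521, and the LN323 libraries lay below all LN521 libraries. COL7A1 was 8.94, 6.35, and 5.82 TPM on LN523, 6.70, 6.65, and 5.12 TPM on LN323, and 14.3, 25.4, and 8.89 TPM on LN521. It was lower than on LN521 by 0.92 (SE 0.23) on LN523 and by 1.07 (SE 0.23) on LN323 on the log2 scale, and replicate 1 of LN523 lay just above replicate 3 of LN521. COL11A1 was 13.2, 26.1, and 12.0 TPM on LN323 and 44.1, 34.2, and 33.7 TPM on LN521, with no overlap (log2 fold change -0.89, SE 0.20). COL10A1 was also lower (-2.05, SE 0.59) and COL26A1 higher (0.61, SE 0.19) on LN323. Over all genes the median log2 fold change against LN521 at this day was -0.19 for LN523 and -0.20 for LN323, beside -0.36 and -0.37 over the 44 collagen genes.

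At day 22, LN523 and LN521 differed in 3 collagen genes (0.572% of all genes) and LN323 and LN521 in 5 (0.616%). COL16A1 was 9.66, 37.3, and 8.70 TPM on LN523, 12.9, 20.7, and 11.6 TPM on LN323, and 5.43, 7.12, and 5.96 TPM on LN521. Both groups lay above all LN521 libraries, with log2 fold changes of 1.28 (SE 0.22, adjusted p = 1.61e-04 in edgeR) and 1.25 (SE 0.22, adjusted p = 1.07e-04). COL9A3 was higher by 0.87 (SE 0.18) on LN523 and by 0.94 (SE 0.18) on LN323, with 37.9, 21.3, and 79.1 TPM on LN521 and 99.9, 37.2, and 112.3 TPM on LN523, so that the groups overlapped. COL1A1 was higher on LN523 (0.73, SE 0.18), at 188.5, 108.3, and 90.1 TPM against 78.3, 47.2, and 102.9 TPM on LN521, and the groups overlapped. The sign was opposite to that of its difference at day 2, but only 2 of 15 alternatives kept the day 22 call.

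On LN323 at day 22, COL3A1 was 532.2, 1364, and 845.1 TPM, above the 378.7, 263.8, and 484.0 TPM on LN521 (log2 fold change 1.04, SE 0.22, adjusted p = 0.0037 in edgeR). Only 4 of 15 alternatives kept this call, with log2 fold changes between 0.48 and 1.63 over all of them. COL23A1 was higher (1.08, SE 0.24). COL7A1 was lower (-1.28, SE 0.26), at 22.5, 5.60, and 13.7 TPM against 21.2, 30.1, and 24.9 TPM on LN521, and the groups overlapped. Its log2 fold change was -0.26 without LN521 replicate 2, and 4 of 15 alternatives kept its call. The fibroblast and mesenchyme markers summed to 402.0 to 428.9 TPM on LN323, 239.6 to 503.6 TPM on LN523, and 139.2 to 293.0 TPM on LN521, and 4 of the 10 were higher on LN323 than on LN521 and 1 on LN523. Also against LN521, 4 of 6 smooth muscle and pericyte markers were higher on LN523 and 1 on LN323. Of 9 pigment epithelium markers, 4 were lower on LN523 and 2 on LN323, and of 8 pluripotency markers, 2 and 4. Of 8 ganglion cell and neuron markers, 3 were lower and 1 higher on LN523, and 1 was lower and 1 higher on LN323. Their part in the result was not tested.

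At day 32, LN523 and LN521 differed in COL9A3 only (0.0609% of all genes) and LN323 and LN521 in 4 genes (0.117%). COL9A3 was 268.1, 134.1, and 143.5 TPM on LN523, 221.1, 171.8, and 112.4 TPM on LN323, and 65.1, 35.1, and 91.8 TPM on LN521. Both groups lay above LN521, by 1.49 (SE 0.27) and 1.39 (SE 0.27) on the log2 scale (adjusted p = 0.0312 for both in edgeR). COL1A1 was 151.2, 599.8, and 152.7 TPM on LN323 and 86.7, 58.7, and 33.8 TPM on LN521, with no overlap (log2 fold change 2.02, SE 0.29, adjusted p = 0.00289 in edgeR). COL12A1 was 16.4, 57.8, and 14.4 TPM on LN323 and 12.0, 7.05, and 3.80 TPM on LN521, also without overlap (1.81, SE 0.32). COL1A2 was higher by 0.93 (SE 0.17), with overlapping groups. The median log2 fold change of LN323 against LN521 was 0.58 over the 44 genes and -0.05 over all genes. The fibroblast and mesenchyme markers summed to 585.0 to 1642 TPM on LN323, 423.8 to 822.1 TPM on LN523, and 273.5 to 325.1 TPM on LN521, and 1 of the 10 was higher on LN323 than on LN521 and none on LN523. Of 9 lens markers, 3 were higher on LN323 and 1 on LN523, and their part in the result was not tested.

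**Figure D5:**
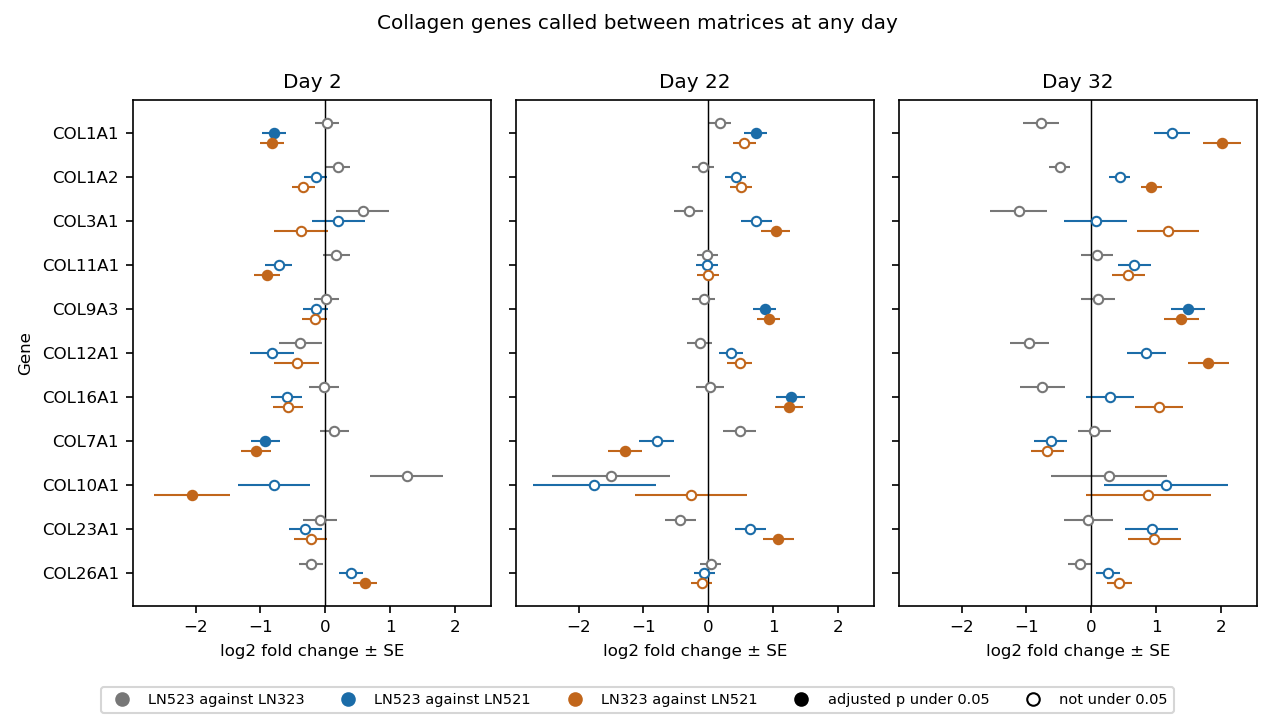
Log2 fold change with its standard error between matrices at each day for the 11 genes called in at least 1 comparison. Filled points have an adjusted p-value under 0.05 in edgeR, and COL1A1 lies left of 0 against LN521 at day 2 (-0.79 and -0.82) and right of 0 at days 22 and 32.

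These matrix differences rest on the fit. In none of the 6 comparisons with LN521 was a collagen gene called with the filterByExpr filter or in limma, whereas the log2 fold change of a called gene kept its sign in every alternative run. Without the lane block, the counts of 3 and 5 at day 22 and 1 and 4 at day 32 became 0, 0, 0, and 1. Without replicate 2 of all 3 matrices at day 32, no collagen gene was called, and the log2 fold change of COL9A3 was 1.30 on LN523 and 0.96 on LN323. The day 32 count for LN323 against LN521 was 0 without LN323 replicate 2 and 21 without LN521 replicate 1. For these runs the share of all genes called is not given here either.

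Genes whose products modify, export, crosslink, bind, or degrade collagen also changed from day 2 to day 22. Their counts stand beside the 18.2% of all genes that rose and the 16.9% that fell. Of 19 genes for chain modification and folding, 11 rose and 2 fell. COLGALT2, a collagen galactosyltransferase, rose by 4.32 (SE 0.25) and PLOD1, a lysyl hydroxylase, by 1.45 (SE 0.13) on the log2 scale. SERPINH1, the collagen chaperone HSP47, fell by 0.50 (SE 0.11) and PPIB, a prolyl isomerase, by 0.34 (SE 0.11). Of 6 crosslinking genes, 4 rose and none fell, among them the lysyl oxidases LOXL4 (2.66, SE 0.28) and LOXL1 (1.75, SE 0.13).

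Of 12 genes for export and processing, 5 rose and 2 fell. The procollagen proteinases TLL1 and BMP1 rose by 3.81 (SE 0.29) and 1.92 (SE 0.17), and their relative TLL2 fell by 3.05 (SE 0.46). Of 12 genes for degradation, 7 rose and 1 fell, with a rise of 7.54 (SE 0.96) for the protease FAP, which is also known as a fibroblast marker. Of 11 receptors, 6 rose and 4 fell, and DDR2, a kinase that binds fibrillar collagen, rose by 3.73 (SE 0.45). From day 22 to day 32 only PLOD2 (0.64, SE 0.16), LOXL4 (1.16, SE 0.26), and LOX (1.02, SE 0.25) among these genes passed the threshold, and each rose.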

How the data were processed

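Total RNA of 27 H1 libraries was depleted of ribosomal RNA and sequenced in read pairs on 3 lanes. The authors aligned reads to GRCh38 with STAR 2.5.2b and counted genes with featureCounts 1.5.1, and they removed ribosomal RNA and mitochondrial genes. The deposited counts are whole numbers without normalization, of which 68.8% of the non-zero values were even, and the TPM values deposited by the authors rest on those counts, scaled by 1 length per gene (the length varied by over 1% between libraries for 0 of 13476 well-counted genes). A ratio or share between genes therefore rests on the lengths used, whereas the relative change of a ratio between days does not. Genes were named by GENCODE 44, which matched 43052 of 44852.

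Differential expression was tested with edgeR 4.0.16 in R 4.3.3 (quasi-likelihood test, TMM normalization, genes with more than 1 count in sum, lane as a replicate block, Benjamini-Hochberg adjustment over all genes tested, threshold 0.05). Fits over days used all 27 libraries and those between matrices the 9 libraries of a day. Standard errors are the log2 fold change divided by the square root of F. The biological coefficient of variation was 45.1% over all libraries and 37.4%, 39.5%, and 44.4% at days 2, 22, and 32. With 3 libraries in a group, the spread between replicates rather than depth limits precision (mean chi-square per gene of 14.7 to 236 over 27 pairs of replicates). The lane pairs samples by the library titles. Deviations of same-lane LN523 and LN323 libraries from their group means correlated at 0.387 to 0.791 at day 22 and 0.59 to 0.687 at day 32, and at -0.662 to 0.0734 at day 2. Those of LN523 and LN521 correlated at 0.0514 to 0.329, -0.131 to 0.388, and -0.236 to 0.413 at days 2, 22, and 32. For LN323 and LN521 the values were -0.299 to 0.154, -0.194 to 0.432, and -0.271 to 0.229. Same-lane libraries therefore did not deviate alike throughout in the pairs with LN521.

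Members and gene lists were chosen with earlier results of these data known. Named are the 12 genes with the highest group mean TPM and up to 5 called rises and falls (or calls, between matrices) in each comparison, and in each pathway list the leading ones. All further names were picked with their values known. Alternatives were RLE normalization, filterByExpr, DESeq2 1.42.0, no block, limma 3.58.1 on log2(TPM + 1) and log2(TPM + 0.1), other sets of libraries, and leaving out replicates. Tests were run on simulated data before use. The simulation had less spread than these libraries and no lane effect, so it does not measure how the fits behave here. Figures were drawn with matplotlib 3.10.9.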

Additional observations from a re-analysis of the deposited data

Results flagged for a closer look

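The change of COL1A1 over days differed between the matrices by the F test in edgeR (adjusted p = 0.0219). For 4 further genes, every same-lane change went one way on one matrix and the other way on another, and values are means over 3 lanes on the log2(TPM + 0.1) scale. The F test over both day changes together did not call these 4 (adjusted p = 0.262 for COL16A1, 0.851 for COL23A1, 0.20 for COL12A1, and 0.746 for COL10A1 in edgeR), and the difference within the single step was not tested. From day 2 to day 22, COL16A1 changed by 1.01 on LN523 and 1.02 on LN323 but by -1.01 on LN521. Over the same days COL23A1 changed by 0.645 on LN523 and 1.04 on LN323 but by -0.50 on LN521. From day 22 to day 32, COL12A1 changed by 0.779 on LN323 and -0.537 on LN521, and COL10A1 by 0.962 on LN523 and -0.369 on LN323, the latter from levels under 1 TPM. Groups of 3 libraries were too small to examine for single outlying values.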

How the results depend on the processing

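The count of 34 collagen genes from day 2 to day 22 was 30 to 35 in all alternatives, and no log2 fold change reversed in any. The median of all genes shifted by 0.12 and 0.20 (log2) in limma on log2(TPM + 1) and log2(TPM + 0.1). The rises of COL6A1 and COL18A1 were 0.38 each in edgeR. From day 22 to day 32 the count of 10 became 4 with filterByExpr and 3 in both limma settings, and 8 to 18 without single replicates. The count of 1 for the difference in day change became 0 with filterByExpr, in DESeq2, without the replicate block, and in both limma settings, and 0 to 13 without single replicates. The block changed the count by under 1.5 times for the day comparisons (33 and 8 without it).

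Between matrices, filterByExpr and both limma settings gave 0 in every comparison. The fit of all 27 libraries gave 0 for both comparisons with LN521 at day 2 and at day 22. Without the replicate block the counts for LN523 and LN323 against LN521 were 3 and 7 at day 2, 0 and 0 at day 22, and 0 and 1 at day 32. DESeq2 gave 1 and 2 at day 2, 3 for LN323 against LN521 at day 22, and 2 for LN523 against LN521 at day 32. A fit of only the 6 libraries compared gave 3 for LN323 against LN521 at day 2, 2 for LN523 against LN323 and 0 for LN523 against LN521 at day 22, and 14, 2, and 2 at day 32 for LN523 against LN323, LN523 against LN521, and LN323 against LN521. Without replicate 2 of all 3 matrices, a setting chosen after seeing the data, the counts were 3, 3, and 3 at day 22 and 0, 0, and 0 at day 32. Leaving out single libraries gave 0 to 3, 0 to 3, and 0 to 13 at day 2, 0 to 6, 1 to 7, and 0 to 8 at day 22, and 0 to 5, 0 to 14, and 0 to 21 at day 32 for the same 3 comparisons. The filter tests fewer genes and the reduced fits hold fewer samples by construction, and the cause was otherwise not tested. Counts in this section are of collagen genes only, without the share of all genes called in the same run.

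Of the 64 calls of single genes in all comparisons, 61 were kept under RLE normalization, 51 in DESeq2, 49 without the replicate block, and 35 with filterByExpr, and 33 of 63 were kept in each limma setting. None reversed its direction. Depth limits COL5A3 and COL19A1, which had counts of 0 in some libraries at day 22 or day 2. It limits COL8A1 and COL15A1 too, each at 0 in 1 of 9 libraries at day 2.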
